A study of Mus musculus with 5 samples.

Results

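Lines H3 and H4 are derivatives of 6DT1, a highly metastatic mouse mammary carcinoma cell line, and each carries a different lentiviral short hairpin against *Arid4b*. They were chosen by their labels, hairpin 3 and hairpin 4, and were 2 of the 5 lines arrayed in the series; here H3 and H4 always mean these lines and never the histones. The study knocked down *Arid4b* to examine its part in lung metastasis and arrayed total RNA on Affymetrix Mouse Gene 1.0 ST arrays, 1 array per line. H3 and H4 were pooled clones selected in 10 µg/ml puromycin, and their ARID4B protein was given by densitometry as 0.19 and 0.15. The other 3 lines served as a scale: H5, which was transduced with *Arid4b* hairpin 5 and kept its ARID4B protein at 1.02, the line with the scrambled hairpin in pLKO.1 (1.00), both also pooled clones under puromycin, and untransduced 6DT1 cells, which were not selected.

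A short hairpin is processed into a guide strand that directs Argonaute proteins to matching transcripts, and hairpins against the same gene hold different guide strands. ARID4B is a chromatin protein of the SIN3 histone deacetylase complex, which represses transcription. Cells that divide rapidly hold much transcript of the mitotic apparatus, made in G2 and mitosis from promoters that carry a cell cycle homology region and CCAAT boxes, while replication genes are transcribed earlier, at the passage from G1 to S phase. Interferon-stimulated genes respond to viral nucleic acid and to cytokine through promoters with interferon-stimulated response elements. The question of the comparison is where lines that share a target and a low ARID4B level read differently.

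All values are log2 expression and all differences are H3 minus H4 unless stated otherwise, so that 1 is 2-fold. With 1 array per line no test could be made, and no difference given here has a replicate check. A gene was called different where H3 and H4 lay at least 0.5 apart (1.41-fold) and further apart than the highest and lowest of the 3 control lines. Of 19938 genes, 345 were called higher in H3 (1.73% of all genes) and 738 higher in H4 (3.7%). At a distance of at least 1 the counts were 34 higher in H3 (0.171%) and 89 higher in H4 (0.446%). With the array medians subtracted the split turned further to H4, with 208 genes higher in H3 and 1265 higher in H4, and the median of all genes moved from 0.05 to -0.07. It turned slightly the other way after quantile normalization (393 and 668) and after removal of the trend with expression level (385 and 712).

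The lines stood further apart from each other than any pair of control lines. H3 and H4 differed by at least 0.5 in either direction in 5.85% of genes, against 0.652% for H5 and the scrambled control, 1.31% for H5 and untransduced cells, and 3.52% for the scrambled control and untransduced cells. Values on the H3 array were compressed: over 10 groups of equal size, from the dimmest to the brightest genes, the median difference ran through 0.03, 0.09, 0.12, 0.15, 0.15, 0.05, -0.09, -0.09, -0.07 and -0.04. The medians of H4 minus the control mean lay between -0.03 and 0.02 in these groups. Chromosome medians of H3 minus H4 lay between 0.01 and 0.07 on 20 chromosomes. Of the mammary epithelial markers *Krt8* and *Krt18* were high in all 5 lines (11.57 to 12.26). *Krt19* (7.26 to 8.35) and *Cldn3* (7.21 to 7.73) were intermediate, *Krt7* and *Cldn4* read 6.55 to 6.89, and *Cldn7* read 5.33 to 5.88. *Epcam* (5.61 to 5.75) and *Cdh1* (6.05 to 6.16) were low in all 5 lines. For comparison, *Ptprc* of leukocytes read 4.98 to 5.15 and *Pecam1* of endothelium 5.56 to 5.79. The fibroblast markers ran from 3.98 (*Lum*) to 7.79 (*Col1a1*).

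**Figure D1:**
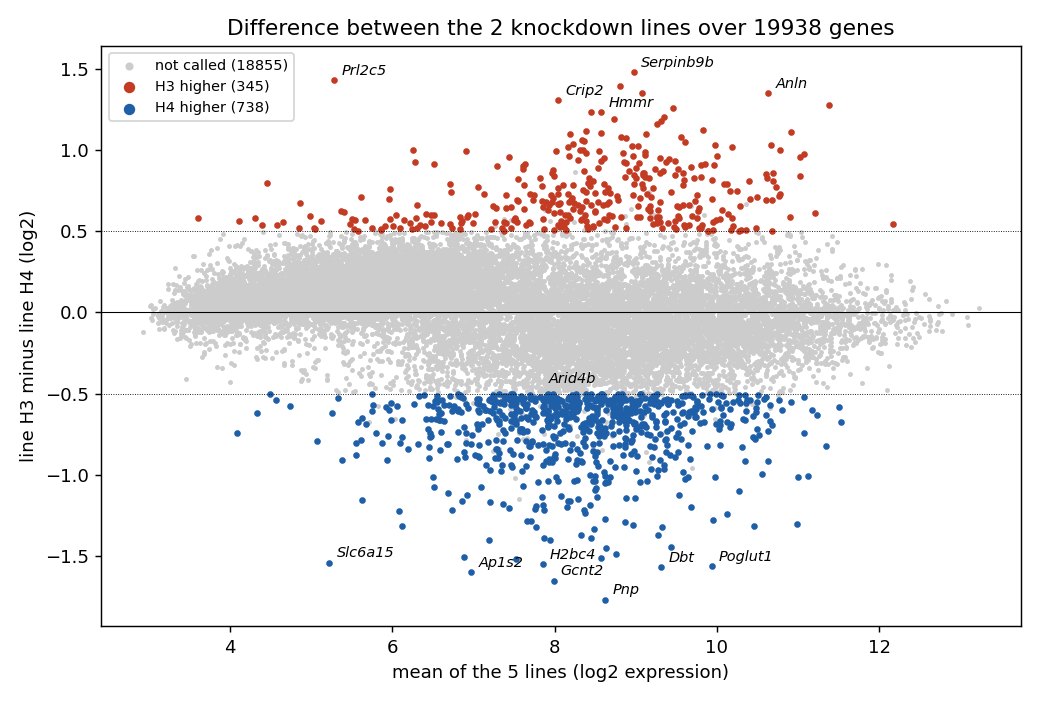
Difference between lines H3 and H4 (log2, vertical axis) against the mean log2 expression of the 5 lines (horizontal axis) for 19938 genes. Red and blue points are the 345 and 738 genes called higher in H3 and in H4, dotted lines mark 0.5 and -0.5, and the grey cloud tilts upward at low levels and downward at high levels.

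*Arid4b* itself read 6.88 for H3 and 7.35 for H4, and the control lines read 8.24 (H5), 8.34 (scrambled) and 8.36 (untransduced). Both lines lay below every control line, and H3 lay 0.47 below H4, just short of the distance for a call; with array medians subtracted the difference was -0.58 and after quantile normalization -0.54, both past it. Densitometry of the protein had H4 as the lower line, at 0.15 against 0.19. The paper's tests of these protein levels were made against the scrambled control, so neither order of H3 and H4 was tested. The partners of ARID4B hardly separated the lines: of the 21 measured genes of the SIN3 complex 0 were called other than *Arid4b* under those scalings, and the list median difference was -0.05, against 0.05 over all genes. *Sap30*, a small subunit of the complex, was at 7.24 in H3 and 7.54 in H4, and *Sin3a*, its scaffold, at 8.70 and 8.56. None of the 15 measured genes that process small RNAs, such as *Drosha*, *Dicer1* and the Argonautes, was called either (median -0.07).

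Genes of cell division were for the most part higher in H3 than in H4. Of 139 measured members of the lists of G2 and mitosis, centromere and kinetochore, spindle and cytokinesis, and G1/S and replication, 134 were higher in H3 and 82 were called higher in H3, while 0 were called higher in H4. These 82 made up 23.8% of the 345 genes called higher in H3, and their lists were 59.0% called, beside 1.73% of all genes. Of the 139, 88 lay at least 0.25 below every control line in both knockdown lines, 41 did so in H4 with H3 near the controls, and 10 were near the controls in both. The shares of all genes in these positions were 2.63%, 3.04% and 77.2%. In a bulk sample, fewer dividing cells and less transcript per dividing cell cannot be told apart.

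The separation was strongest at the end of the cycle. Among 29 regulators of G2 and mitosis, all 29 were higher in H3, 26 were called and the median difference was 0.88 (0.77 to 0.95 under the other scalings). The median member lay at -0.54 for H3 and -1.44 for H4 when the control mean was subtracted. Of the 29, 24 lay below all control lines by at least 0.25 in both knockdown lines, beside 2.63% of all genes. Of 23 genes of the spindle and cytokinesis, 18 were called higher in H3 with a median of 0.96, with -0.61 for H3 and -1.53 for H4 against the control mean. Of 34 centromere and kinetochore genes, 18 were called, with a median of 0.52.

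*Hmmr*, a spindle-associated hyaluronan receptor, read 8.42 in H3 and 7.18 in H4, against 8.97, 9.08 and 9.23 in H5, the scrambled control and untransduced cells, a difference of 1.24. *Bub1*, a kinase of the spindle checkpoint, read 9.73 and 8.61 against 10.29, 10.23 and 10.28 (1.13). *Plk1*, the polo kinase that drives mitotic entry, read 10.86 and 9.75 against 11.31, 11.14 and 11.50 (1.11). In each of these the order was the controls, then H3, then H4, without overlap. *Foxm1*, the transcription factor that activates the G2 and mitosis genes, followed the same order at 8.50 and 7.39 against 9.09, 8.72 and 9.14. So did *Aurka*, a centrosomal kinase, at 9.50 and 8.42 against 9.94, 9.77 and 10.13.

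Within the spindle and cytokinesis list, *Anln*, which links actin to the contractile ring, read 10.57 in H3 and 9.22 in H4 against 11.13, 10.99 and 11.25 (1.35). *Kif18b*, a kinesin that shortens microtubules, read 9.48 and 8.22 against 9.86, 9.74 and 9.98 (1.26). *Kif14*, a kinesin of cytokinesis, read 8.54 and 7.34 against 9.14, 9.04 and 9.60 (1.19, but 0.61 with the probe sets of the gene averaged). H3 thus lay closer to the controls than H4 in all 3. *Kif2c*, a microtubule depolymerase, was not called, with 8.48 in H3 and 8.44 in H4 against 10.23, 10.06 and 10.39: it was low in both lines, 0.04 apart. *Kif18a* (0.48) and *Kif2a* (-0.14) were not called either, and *Kif2a*, at 8.98 and 9.12, lay close to the controls (9.05 to 9.14).

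**Figure D2:**
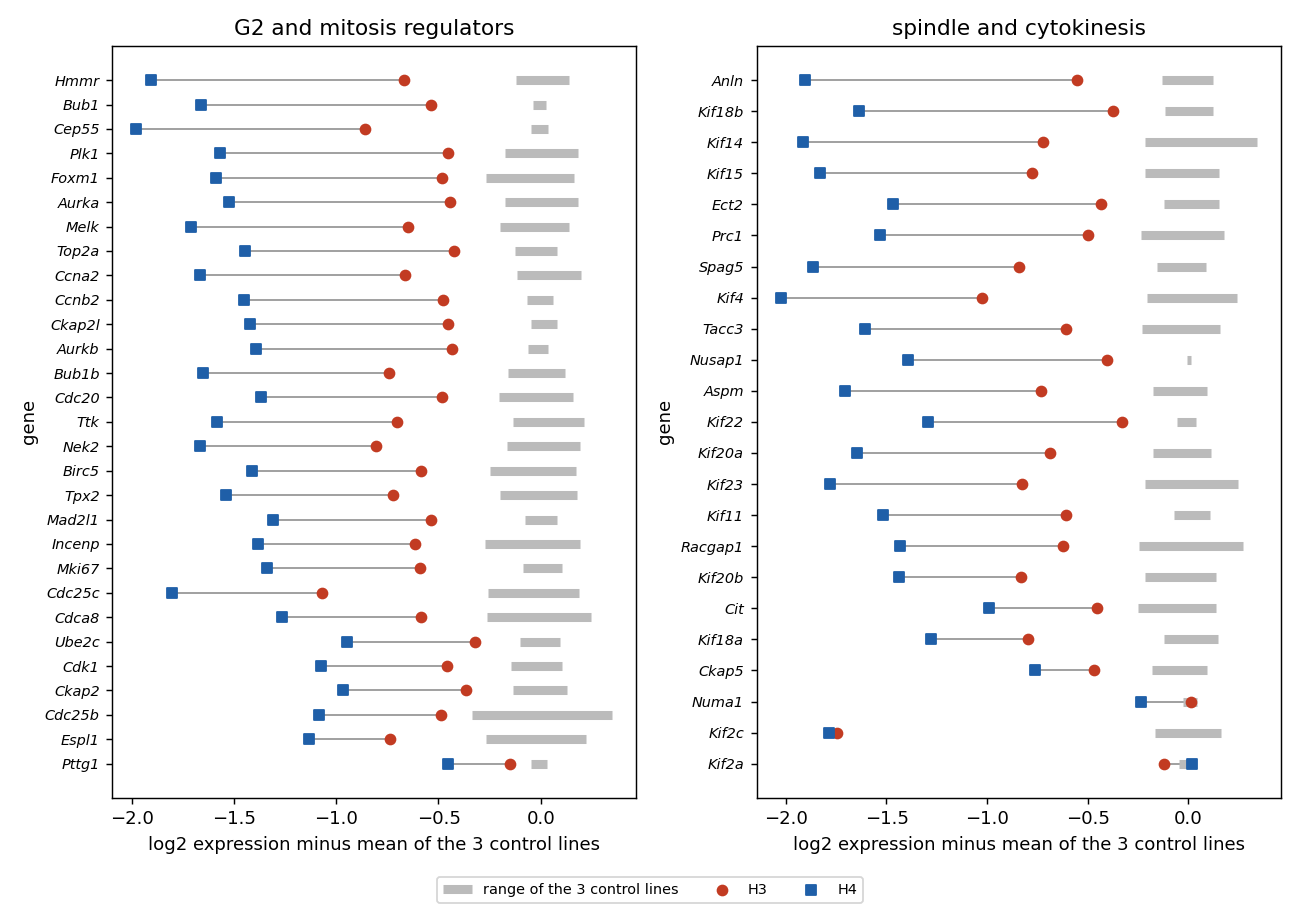
Log2 expression of the 29 regulators of G2 and mitosis and the 23 genes of the spindle and cytokinesis in lines H3 (circles) and H4 (squares), each minus the mean of the 3 control lines (horizontal axis), ordered by the difference. Grey bars span the 3 control lines, and H4 lies left of H3 for all but 1 gene, Kif2a.

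The centromere list was uneven. *Cenpi*, of the inner kinetochore, read 7.44 in H3 and 6.44 in H4 against 8.76, 8.41 and 9.01 (1.00), and *Nuf2*, of the NDC80 complex that grips microtubules, read 8.77 and 7.85 against 9.56, 9.27 and 9.73 (0.92). *Nsl1*, of the MIS12 complex, read 8.23 in H3, equal within rounding to the scrambled control, and 7.21 in H4, a difference of 1.02. *Zw10* (0.08), *Cenpc1* (-0.06), *Cenpk* (0.05) and *Cenpw* (0.05) hardly differed between the lines.

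Replication genes separated the lines less. Of 53 genes of G1/S and DNA replication, 50 were higher in H3 and 20 were called higher in H3, with a median of 0.46, while 12 were called with array medians subtracted and 25 and 26 after quantile normalization and removal of the trend with level. The largest median between a pair of control lines was 0.41 for this list, so the list as a whole lay only a little outside the spread of the controls. *Lig1*, the ligase that joins Okazaki fragments, read 9.05 in H3 and 7.69 in H4 against 9.56, 9.22 and 9.89 (1.36). *Tk1*, the thymidine kinase of S phase, read 9.58 and 8.69 against 10.19, 9.75 and 10.22 (0.90), and *Rrm2*, a subunit of ribonucleotide reductase, read 10.80 and 9.96 against 11.52, 11.20 and 11.66 (0.84). In *Lig1* and *Tk1* the scrambled control lay nearest to H3. *Ccne2* (-0.22), a cyclin of S phase entry, and *Wdhd1* (-0.29), a replication fork factor, were higher in H4 without a call.

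Of 26 DNA repair genes 10 were called higher in H3, with a list median of 0.33. *Fancm* (-0.53) was the 1 called higher in H4, or 3.85% of the list. Over all genes 1.73% were called higher in H3 and 3.7% higher in H4, which also applies to the histones below. Those higher in H3 included *Fancd2* of the Fanconi pathway at 8.35 and 7.36 against 9.07, 8.84 and 9.09 (0.99) and *Bard1*, the partner of BRCA1, at 7.56 and 6.64 against 8.10, 7.78 and 8.10 (0.91). Histones of S phase were mixed, with 5 of 13 called higher in H3 (3 with array medians subtracted) and 2 higher in H4 (1 after quantile normalization or removal of the trend with level). *H2ac4* read 6.18 in H3 and 5.18 in H4 against 6.42, 6.66 and 6.82, below the controls in both lines. *H2bc4* read 7.36 in H3 and 8.91 in H4 against 7.60, 7.76 and 7.63, so that H4 lay far above and H3 somewhat below every control line (-1.55). Histone genes are near-identical copies, and probe sets may share signal between them.

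The promoters of *Hmmr* and *Plk1* were picked from G2 and mitosis regulators with wide differences, among promoters that hold both motifs marked below. Those of *Gbp3* and *Ifit1*, both called higher in H4, were picked from interferon-stimulated genes whose promoters hold the repeat marked below. The marked motifs are therefore present by selection, and genes with larger differences, such as *Bub1* and *Rtp4*, are not shown. They run from 250 bases before to 50 bases after the gene start, 5′ to 3′ on the gene's strand, from RefSeq on GRCm38.p6: *Hmmr* at chr11:40733388-40733687 on the minus strand, *Plk1* at chr7:122159185-122159484 on the plus strand, *Gbp3* at chr3:142559794-142560093 on the plus strand and *Ifit1* at chr19:34640639-34640938 on the plus strand. Capitals mark, on either strand, TTTGAA (the cell cycle homology region) and CCAAT in the first pair, where ATTGG is CCAAT on the other strand, and TTTCNNTTTC (the repeat of the interferon-stimulated response element) in the second pair, where the run of capitals in *Gbp3* holds 2 overlapping matches.
Hmmr: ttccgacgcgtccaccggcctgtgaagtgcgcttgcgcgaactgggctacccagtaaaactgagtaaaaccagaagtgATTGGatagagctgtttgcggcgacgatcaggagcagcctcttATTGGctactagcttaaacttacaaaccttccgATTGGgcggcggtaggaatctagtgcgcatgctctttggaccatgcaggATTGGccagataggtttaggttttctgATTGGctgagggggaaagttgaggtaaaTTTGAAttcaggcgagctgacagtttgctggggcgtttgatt
Plk1: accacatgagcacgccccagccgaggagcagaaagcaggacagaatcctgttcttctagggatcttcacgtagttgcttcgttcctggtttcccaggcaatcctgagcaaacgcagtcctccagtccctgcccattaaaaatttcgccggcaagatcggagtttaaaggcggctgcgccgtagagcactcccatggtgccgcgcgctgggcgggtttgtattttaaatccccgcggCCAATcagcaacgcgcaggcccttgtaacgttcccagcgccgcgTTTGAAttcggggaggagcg
Gbp3: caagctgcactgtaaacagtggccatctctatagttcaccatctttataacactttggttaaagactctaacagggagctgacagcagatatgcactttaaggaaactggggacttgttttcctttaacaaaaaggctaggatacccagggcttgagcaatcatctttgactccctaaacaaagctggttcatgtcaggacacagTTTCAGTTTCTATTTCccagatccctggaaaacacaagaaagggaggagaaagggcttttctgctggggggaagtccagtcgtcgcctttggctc
Ifit1: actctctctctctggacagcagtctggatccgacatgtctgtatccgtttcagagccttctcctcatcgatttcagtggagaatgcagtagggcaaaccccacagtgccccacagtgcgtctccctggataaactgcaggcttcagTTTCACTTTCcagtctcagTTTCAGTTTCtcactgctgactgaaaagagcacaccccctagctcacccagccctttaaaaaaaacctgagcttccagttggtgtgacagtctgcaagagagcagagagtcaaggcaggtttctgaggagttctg

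TTTGAA stood in 20.2% of 27025 promoters of this length, in 16 of 23 G2 and mitosis promoters found in the table, in 16 of 22 of the spindle list, in 13 of 30 of the centromere list and in 9 of 44 of the G1/S list. It stood in 30.5% of 272 promoters of genes called higher in H3, a set that holds the cell cycle genes above, and in 13.0% of 602 promoters of genes called higher in H4. CCAAT stood in 41.1% of all promoters, in 18 of 23 of the G2 and mitosis list and in 12 of 22 of the spindle list. It stood in 54.4% of 272 promoters of genes called higher in H3 and in 42.5% of 602 of those called higher in H4. Lists that leaned towards H4, described below, held it too: 16 of 16 promoters of cholesterol synthesis, 17 of 23 of ER chaperones and 9 of 25 of the interferon list. Neither motif overlaps the other as spelled. These matches describe letters in a window and not sites of binding.

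Interferon-stimulated genes leaned the other way. Of 35 measured members 28 were higher in H4, 6 were called higher in H4 and 0 higher in H3, and the median difference was -0.38 (3.7% of all genes were called higher in H4). Leaving out control lines moved this count, to 11 without the scrambled control and to 14 without the untransduced line, and it stayed at 6 without H5. The largest median between a pair of control lines was 0.56, larger than that between H3 and H4. Against the control mean, H4 (0.21) and the scrambled control (0.22) had the highest list medians, followed by H5 (0.06), H3 (-0.09) and the untransduced cells (-0.31).

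Untransduced cells lay below both H5 and the scrambled control in 32 of the 35 genes, H3 lay below both in 27, and H4 lay above both in 20. By list median H3, although transduced and selected, sat between the untransduced cells and the other transduced lines. H4 (0.21) sat above H5 (0.06) and beside the scrambled control (0.22), though not in every gene. *Rtp4*, an interferon-induced chaperone of receptors, read 6.10 for H3, close to the 6.07 of untransduced cells, and 7.61 for H4, above the 7.28 and 7.36 of H5 and the scrambled control (-1.51). *Irf7*, the factor that amplifies interferon production, read 7.25 and 8.26 against 7.39, 7.89 and 6.75 (-1.02), a difference inside its control range of 1.14.

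*Gbp3*, an interferon-induced GTPase, read 7.12 in H3 and 8.10 in H4 against 7.39, 7.39 and 6.70 (-0.98), so that H4 lay above every other line. *Ifit1*, which binds foreign RNA ends, read 5.63 and 6.40 against 6.20, 6.36 and 6.02 (-0.77), and here H3 was the line that stood apart, below all others. *Oas1b* (-0.59), *Eif2ak2* (-0.53), the kinase PKR that halts translation on double-stranded RNA, and *Ifit3* (-0.50) were the remaining members called. *Oasl2* (-0.76), *Oas3* (-0.70) and *Irf9* (-0.61) exceeded 0.5 but not their control range. Members with values close together were *Mx1* (0.02), *Irf1* (0.03) and *Oas2* (0.00). TTTCNNTTTC stood in 13 of 25 promoters of the list and in 3.99% of all promoters. Among called genes it stood in 6.25% of 272 promoters of those higher in H3 and in 3.82% of 602 of those higher in H4. The genes called higher in H4 as a set thus held it about as often as all promoters.

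**Figure D3:**
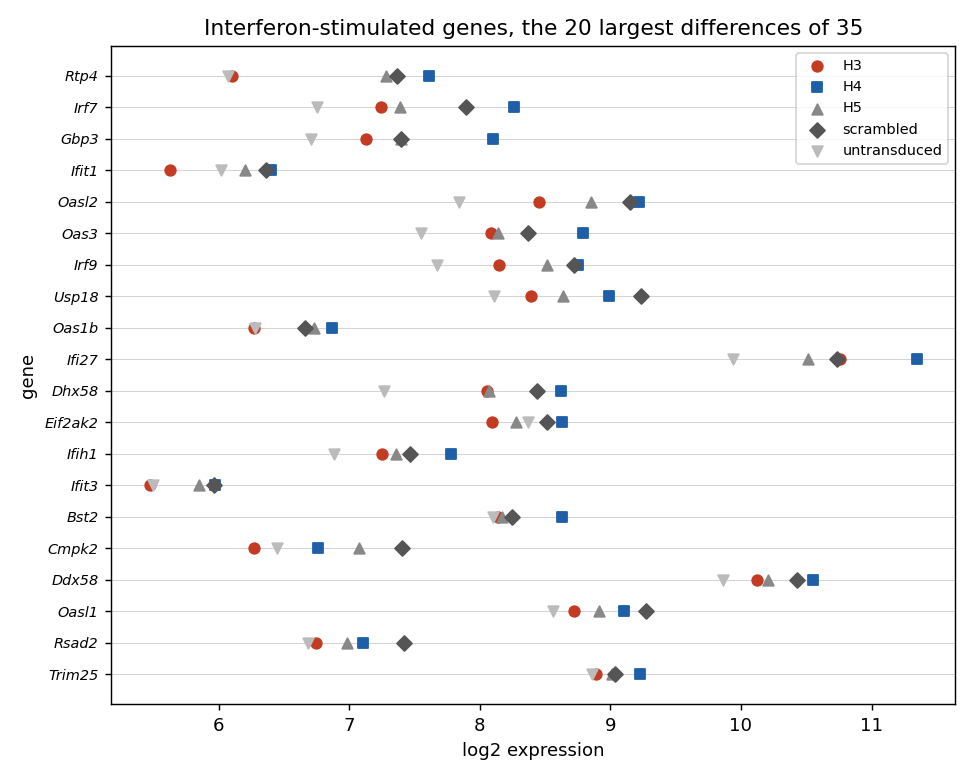
Log2 expression (horizontal axis) of the 20 interferon-stimulated genes with the largest difference between H3 and H4 of 35 measured, in each of the 5 lines. Untransduced cells and H3 hold the lowest values for most genes and H4 or the scrambled control the highest.

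The most frequent form of a gene higher in H4 was one low in H3 with H4 near the controls. Of the 738 genes called higher in H4, 381 (51.6%) had H3 at least 0.25 below every control line and H4 near or within the controls, 201 (27.2%) had H4 above and H3 near, 83 had both near, and 55 had H4 above and H3 below. Both lines were set against the same controls in these counts. Over all genes 5.90% had H3 below and H4 near, 3.31% had H3 near and H4 above, 77.2% had both near, and 0.276% had H4 above and H3 below. In groups 7 to 10 of the 10 groups by level, the brighter ones, the median of H3 minus the control mean lay between -0.12 and -0.08. The part of this shift in the counts was not tested. *Pnp*, a purine nucleoside phosphorylase, read 7.08 in H3 and 8.85 in H4 against 8.98, 9.11 and 9.10 in H5, the scrambled control and untransduced cells. The difference of -1.77 was the largest of any gene, and the lines other than H3 lay between 8.85 and 9.11.

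Several further genes had this form. *Gcnt2*, a glycan-branching enzyme, read 6.76 in H3 and 8.41 in H4 against 8.20, 8.38 and 8.17 (-1.65). *Dbt*, a subunit of the mitochondrial branched-chain keto acid dehydrogenase, read 8.16 and 9.74 against 9.53, 9.58 and 9.55 (-1.57). *Poglut1*, which adds O-glucose to Notch receptors, read 8.81 and 10.38 against 10.18, 10.18 and 10.12 (-1.56). In these 3 genes the control lines agreed closely and H3 was the line apart. *Chchd4*, an oxidoreductase of mitochondrial import, read 7.64 and 9.13 against 8.97 to 9.02 in the controls (-1.49), and *Lpgat1*, an acyltransferase of phospholipids, read 8.29 and 9.73 against 9.49, 9.62 and 10.01 (-1.44). *Golm1*, a Golgi membrane protein, read 6.28 and 7.80 against 7.53, 7.64 and 8.35 (-1.52), with a wider range among the controls.

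*Fn1*, the matrix glycoprotein fibronectin, read 7.75 in H3 and 9.20 in H4 against 8.71, 8.90 and 8.63 (-1.45), and *Ap1s2*, a clathrin adaptor subunit, read 5.94 and 7.54 against 6.92, 7.07 and 7.39 (-1.60). In both, H3 lay well below and H4 above every control line. Other genes were high in H4 with H3 near a control. *Reck*, a membrane inhibitor of matrix metalloproteinases, read 8.01 and 9.53 against 8.63, 8.63 and 8.04 (-1.51). *Slc6a15*, a transporter of neutral amino acids, read 4.60 and 6.14 against 5.07, 5.57 and 4.73 (-1.54). It was among the dimmest 1 in 3 genes, and its 6.14 lay below the median gene of the H4 array (6.76). *Pdgfc*, a platelet-derived growth factor, read 7.39 and 8.80 against 8.06, 7.60 and 7.89 (-1.40). For *Reck* the untransduced line lay with H3, as it did for *Mfsd6*, a membrane protein of the transporter superfamily, at 6.49 in H3, 7.90 in H4 and 6.52 in untransduced cells.

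**Figure D4:**
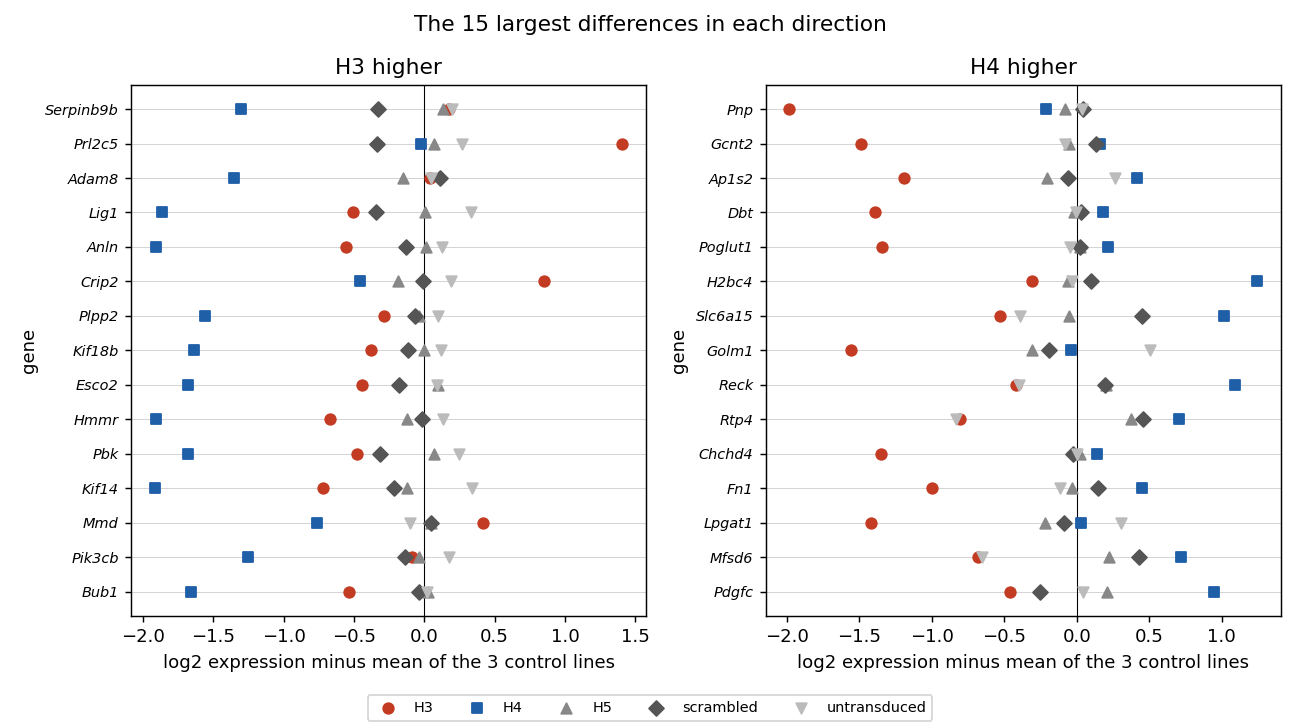
The 15 genes with the largest difference in each direction: log2 expression of each of the 5 lines minus the mean of the 3 control lines (horizontal axis). In the left panel H4 lies apart for most genes, and in the right panel H3 lies apart for Pnp, Gcnt2, Dbt, Poglut1, Chchd4 and Lpgat1, while H4 lies apart for H2bc4, Slc6a15, Reck and Pdgfc.

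Genes higher in H3 were for the most part low in H4. Of the 345 genes called higher in H3, 129 (37.4%) had H4 below and H3 near the controls, and 125 had both below. A further 72 had H3 above and H4 near, and 3 had H3 above and H4 below. In the same order, the shares of all genes in these positions were 3.04%, 2.63%, 6.997% and 0.015%. *Serpinb9b*, an intracellular serpin, read 9.38 in H3 and 7.90 in H4 against 9.34, 8.88 and 9.40 (1.48), and *Adam8*, a membrane metalloprotease, read 9.10 and 7.71 against 8.91, 9.17 and 9.11 (1.39). *Plpp2*, a lipid phosphate phosphatase, read 11.47 and 10.19 against 11.72, 11.69 and 11.85 (1.28), and *Pik3cb*, a catalytic subunit of phosphoinositide 3-kinase, read 9.44 and 8.28 against 9.50, 9.39 and 9.70 (1.16). In *Serpinb9b*, *Adam8* and *Pik3cb* line H3 lay within the control range, and only H4 stood apart. *Prl2c5*, a proliferin of the prolactin family, was higher in H3 than in every other line, at 6.41 against 4.98 in H4 and 5.07, 4.67 and 5.27 in the controls (1.43). It was among the dimmest 1 in 3 genes, and its 6.41 lay below the median gene of the H3 array (6.83). *Prl2c5* and *Serpinb9b* belong to families of near-identical copies whose probe sets may share signal.

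Few genes lay on opposite sides of the controls by at least 0.25 each: 3 had H3 above and H4 below (0.015% of all genes), and 55 had H4 above and H3 below (0.276%). The count of 3 was 9 without the untransduced line and 5 without H5, and the count of 55 was 95 without the untransduced line and 106 with array medians subtracted. *Crip2*, a LIM domain protein, read 8.82 in H3 and 7.51 in H4 against 7.78, 7.96 and 8.16 (1.31). *Mmd*, a membrane protein of the progestin receptor superfamily, read 9.79 and 8.61 against 9.43, 9.43 and 9.28 (1.18). *Havcr2*, the immune receptor TIM-3, read 7.43 and 6.44 against 6.88, 6.87 and 6.88 (0.99). In these 3 the control lines sat between the knockdown lines.

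Of the 55 with H4 above, *Ssr4*, of the translocon-associated complex, read 10.00 in H3 and 11.00 in H4 against 10.58, 10.63 and 10.55, and *Golim4*, a Golgi membrane protein, read 7.43 and 8.56 against 8.17, 8.06 and 8.19. *Uggt2*, which reglucosylates misfolded glycoproteins, read 7.13 and 8.34 against 7.86, 7.63 and 7.86 (-1.21). The list of ER chaperones and degradation factors was lower in H3: 23 of 28 members were higher in H4, the median was -0.23 and 3 were called higher in H4, beside 3.7% of all genes. Its median against the control mean was -0.44 for H3 and -0.07 for H4, and 11 of the 28 members had H3 below and H4 near, beside 5.90% of all genes.

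*Ero1a*, the oxidase that supplies disulfide bonds, read 10.00 in H3 and 11.30 in H4 against 11.17, 11.37 and 11.12 (-1.30). *Dnajb9*, a cochaperone of BiP, read 7.40 and 8.44 against 7.58, 7.86 and 7.70 (-1.05), and *Ern1*, the stress sensor IRE1, read 7.44 and 7.96 against 7.88, 7.88 and 7.92 (-0.52). H3 was below all controls in each, and H4 was above them only in *Dnajb9* and *Ern1*. The disulfide isomerases *Pdia3* (-0.46), *Pdia4* (-0.38) and *Pdia6* (-0.38) missed the distance for a call, and *Hspa5*, the chaperone BiP, was 0.27 lower in H3. For the counts that follow, 1.73% of all genes were called higher in H3 and 3.7% higher in H4. Targets of ATF4, another arm of the stress response, had a median of 0.11, with 2 of 35 called higher in H3 and 1 higher in H4. These counts were 1 and 2 with array medians subtracted, and 3 and 0 after quantile normalization or removal of the trend with level. *Cth*, of cysteine synthesis, read 8.27 and 7.48 against 8.45, 8.47 and 8.47 (0.79). The p53 targets had a median of 0.02 and 1 of 37 called in each direction (higher in H4 2 without the scrambled control, and 0 and 3 with array medians subtracted), with *Zmat3*, an RNA-binding target, at 9.04 and 9.68 against 8.27, 8.31 and 8.31 (-0.64) and *Apaf1*, the apoptosome scaffold, at 9.02 and 8.49 against 8.72, 8.72 and 8.74 (0.53).

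Lipid genes leaned towards H4. The share of all genes called higher in H4 was 3.7%, for comparison with the counts of this paragraph. Of 20 genes of cholesterol synthesis 18 were higher in H4, with a median of -0.28 and 2 called (1 after quantile normalization), while a pair of control lines differed by 0.39 in the median, and 0 were called once the trend with level was removed. *Idi1*, isopentenyl diphosphate isomerase, read 9.17 in H3 and 10.03 in H4 against 9.14, 9.91 and 9.33 (-0.86), and *Insig1*, which retains SREBP in the ER, read 9.47 and 10.14 against 10.20, 10.70 and 10.14 (-0.67). The scrambled control was the highest or second highest line for both. In fatty acid synthesis 17 of 26 were higher in H4, with a median of -0.14 beside at most 0.05 between a pair of control lines, and 2 were called (4 with array medians subtracted, 1 after quantile normalization or removal of the trend with level), *Lpin1*, a phosphatidate phosphatase, at 7.62 and 8.65 against 8.17, 8.67 and 8.06 (-1.04) and *Fads1*, a desaturase, at 9.32 and 9.83 against 10.06, 10.46 and 10.29 (-0.51). The hypoxia list had a median of -0.02 with 3 of 22 called higher in H4 (5 with array medians subtracted): *Ero1a*, *Plod2* (-0.97), a lysyl hydroxylase, and *P4ha1* (-0.69), a prolyl hydroxylase of collagen.

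Genes of adhesion and growth factor signalling differed one by one rather than as lists. *Itgav*, integrin alpha V, read 10.67 in H3 and 11.50 in H4 against 11.54, 11.59 and 11.40 (-0.83), and *Itgb1*, integrin beta 1, read 10.38 and 10.87 against 10.87, 10.86 and 10.87, short of a call at -0.49. In both, H3 alone was low. *Itgb7* leaned the other way at 8.86 and 8.17 against 8.95, 8.86 and 9.09 (0.69), and *Lamb1*, laminin beta 1, read 9.64 and 10.21 against 9.79, 9.79 and 9.61 (-0.58). Over the 25 integrins and laminins 1 was called higher in H3 and 2 higher in H4 (8 with array medians subtracted), beside 1.73% and 3.7% of all genes. The list median of 0.09 turned to -0.03 with array medians subtracted or after quantile normalization, to -0.07 after removal of the trend with level and to -0.38 without the dimmest 1 in 3 genes.

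Among targets of YAP and TEAD, 2 of 24 were called higher in H3 (4 without the untransduced line, 1 with array medians subtracted) and 4 higher in H4. Over all genes 1.73% were called higher in H3 and 3.7% higher in H4, which also applies to the next list. *Nt5e*, the ectonucleotidase CD73, read 7.25 and 8.64 against 7.47, 8.20 and 7.81 (-1.39), and *Axl*, a receptor tyrosine kinase, read 9.87 and 10.65 against 10.67, 10.63 and 10.55 (-0.78). *Ccn1* (0.66) and *Ccn2* (0.67), the matricellular targets most used as a readout, were higher in H3, inside control ranges of 1.06 and 0.98. Thus members of the list differed in both directions. In the TGF-beta and BMP list 0 were called higher in H3 (1 without the scrambled control or without the untransduced line) and 5 of 27 higher in H4 (2 after quantile normalization or removal of the trend with level), among them *Skil*, a feedback repressor, at 6.14 and 6.95 against 7.10, 7.11 and 7.25 (-0.80), *Tgfb2* (-0.57), *Bmp4* (-0.53), *Thbs1* (-0.51) and *Tgfb3* (-0.51). The list median of 0.10 turned to -0.01 with array medians subtracted.

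Among targets and ligands of Wnt and Notch, 3 of 27 were called higher in H4 (2 after quantile normalization or removal of the trend with level): *Jag1*, a Notch ligand, at 6.89 in H3 and 7.74 in H4 against 7.35, 7.13 and 7.32 (-0.84), *Hes1*, a Notch target (-0.65), and *Notch2* (-0.53). These 3 were 11.1% of the list, beside 3.7% of all genes called higher in H4. The targets of NF-kB held 2 of 31 called higher in H4 (6.45%). One was *Tslp*, an epithelial cytokine, at 5.93 and 7.15 against 5.76, 5.84 and 5.71 (-1.22), which was high in H4 alone. The other was *Ccl5*, a chemokine, at 7.01 and 7.68 against 7.75, 7.87 and 7.32 (-0.67). Matrix proteases held *Adam8* and *Mmp10* (0.57) higher in H3 and *Mmp19* (-0.58) higher in H4, of 28 measured. These were 7.14% and 3.57% of the list, beside 1.73% and 3.7% of all genes. Those higher in H4 were 2 without the scrambled control or without the untransduced line and 3 with array medians subtracted.

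Epithelial genes hardly parted the lines, with 1 of 31 called in each direction (higher in H3 2 without H5 or without the untransduced line, and 0 with array medians subtracted): *Cldn3*, a tight junction claudin, at 7.73 and 7.23 against 7.21, 7.39 and 7.32 (0.50) and *Ocln*, occludin, at 7.34 and 7.93 against 7.76, 7.86 and 7.36 (-0.59). *Sprr1a*, of the cornified envelope, read 8.72 in H3 and 7.81 in H4 against 7.03, 7.29 and 7.16 (0.90) and lay above every control in both lines. Its list had 2 of 30 called higher in H3 (1 with array medians subtracted or after quantile normalization), beside 1.73% of all genes. The medians of the epithelial (0.16), basal (0.15), cornified (0.16) and leukocyte (0.19) lists lay close to the 0.12 to 0.15 of all genes of moderately low level, and they were 0.10, 0.02, 0.07 and 0.08 once the trend with level was removed.

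Growth genes showed small and even shifts. Of 53 cytosolic ribosomal proteins 48 were higher in H4, with a median of -0.16, and 1 was called, *Rps3a1* (-0.62), a gene with many processed copies; 36 of 40 genes of ribosome biogenesis were higher in H4 (median -0.15), and 2 were called, *Rrs1* (-0.72) and *Wdr12* (-0.51), a count of 6 with array medians subtracted. A pair of control lines differed by 0.14 and 0.33 in the medians of these lists, and 3.7% of all genes were called higher in H4. The respiratory chain (2 of 53 called), proteasome (0 of 31), glycolysis (1 of 18), immediate early genes (0 of 28), ERK feedback genes (0 of 22), imprinted genes (0 of 20) and reference genes (0 of 11) had medians between -0.06 and 0.11. Without the scrambled control 2 glycolysis genes were called higher in H4 and 1 immediate early gene higher in H3, and without the untransduced line 2 immediate early genes were called higher in H3. Single genes stood out in otherwise quiet lists: *Ctsh*, the lysosomal cathepsin H, at 7.94 and 9.32 against 8.31, 8.38 and 7.65 (-1.37), *Prdx1*, a peroxiredoxin, at 10.05 and 11.06 against 11.28, 11.43 and 11.19 (-1.01), and *Erap1*, which trims peptides for MHC class I, at 7.30 and 8.10 against 8.33, 8.24 and 8.22 (-0.80). In the latter pair H3 was the low line.

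**Figure D5:**
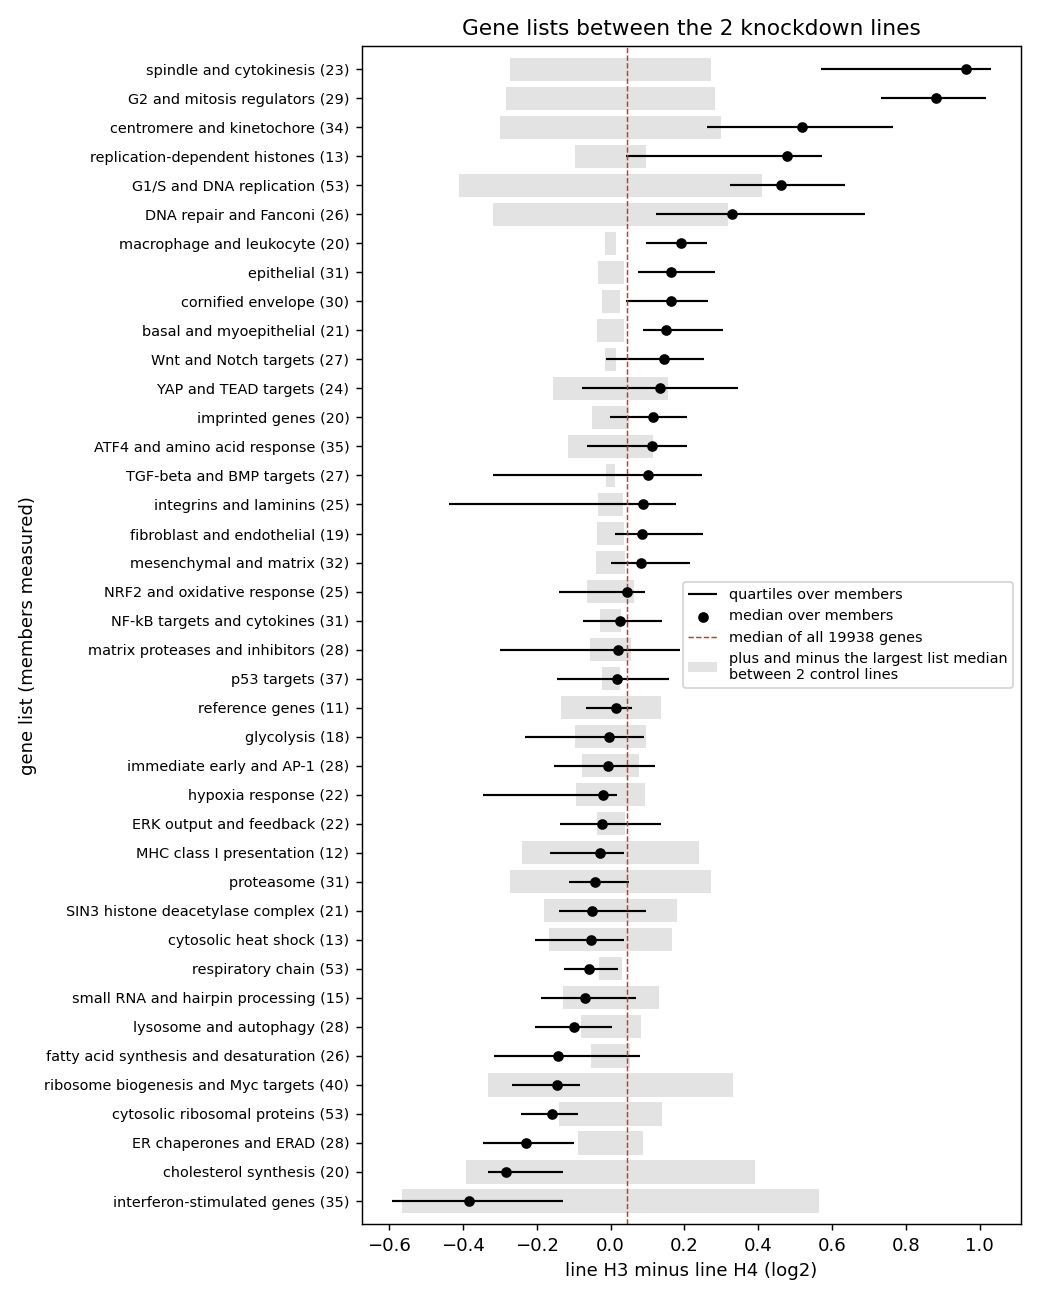
Median difference between lines H3 and H4 (log2, horizontal axis) of 40 gene lists, with the number of members measured, quartiles over members as lines and the median of all genes dashed. Grey bars show the largest list median between a pair of control lines on either side of 0, and the spindle list lies furthest right and the interferon list furthest left.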

How the data were processed

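Total RNA of 5 lines was hybridised to 1 array each, without replicates. The authors deposited normalized expression on the log2 scale. Partek and RMA stand in the submitters' processing notes without versions. Of 35556 probe sets, 21789 had 1 gene symbol in the platform annotation, 1621 had several and 12146 are unnamed here. Gene IDs of 21698 matched RefSeq (GRCm38.p6). Each gene was read from its brightest probe set over the 5 arrays, giving 19938 genes, of which 7663 (38.4%) held equal values on at least 2 arrays.

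H4 was subtracted from H3 and the difference was set against the range of the 3 control lines. No test was made, and having 1 array per line limits the precision. Gene lists, 40 in all, are described by counts and medians. The lists, the rule and the alternatives were chosen with earlier results of these data known. The rule named *Arid4b*, the 15 largest differences in each direction beyond the control range, genes on opposite sides of the controls, and leading list members. Further members named in the text were chosen after their values were seen. The alternatives were subtraction of array medians, quantile normalization, removal of the trend with level by lowess (span 0.3), leaving out the dimmest 1 in 3 genes, averaging probe sets and leaving out each control line. The counting step was tested on simulated data. Python 3.11.15, pandas 2.3.3, numpy 2.4.6, statsmodels 0.14.6 and matplotlib 3.10.9 were used.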

Additional observations from a re-analysis of the deposited data

Results flagged for a closer look

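Line H3 and line H4 lay on opposite sides of all 3 control lines for the genes below, each by at least 0.25, and each line is a single array, so that the difference was not tested. H3 was the higher line for *Havcr2* (H3 minus H4 0.9945 on the log2 scale), *Mmd* (1.182) and *Crip2* (1.308). H4 was the higher line for *Uggt2* (-1.209), *Phtf2* (-1.323), *Morn2* (-1.219), *Zfp715* (-0.9046), *Chic1* (-1.161), *Golim4* (-1.132), *Ssr4* (-0.9963) and *Ctbs* (-1.123), the 8 of 55 such genes with the largest distance of the nearer line.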

How the results depend on the processing

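With array medians subtracted, 208 genes were called higher in H3 and 1265 higher in H4 at 0.5 (H3 higher in 14.1% of called genes, against 31.9% without it), 17 and 138 at 1, and 106 genes had H4 above and H3 below the controls. At 0.5, H3 was higher in 37.0% of called genes after quantile normalization and in 35.1% after removal of the trend with level. The number higher in H3 by at least 1 was 54 after quantile normalization and 57 after removal of the trend with level. Leaving out each control line in turn gave 3 to 9 genes with H3 above and H4 below the controls and 69 to 95 with H4 above and H3 below. Over the alternatives, 38 counts over all genes lay within 1.5 times the value reported and 10 did not. A change of sign was counted only for list medians larger in size than the largest median between a pair of control lines. By this rule it occurred for the respiratory chain (0.00425 after removal of the trend), TGF-beta and BMP targets (-0.012 with array medians subtracted), mesenchymal genes (-0.030, same setting), fibroblast and endothelial genes (-0.027, same setting), and integrins and laminins (-0.025 with array medians subtracted, -0.029 after quantile normalization, -0.067 after removal of the trend, -0.376 without the dimmest 1 in 3 genes). Smaller medians changed sign too without being counted. Among them were p53 targets (-0.095) and ATF4 targets (-0.0004), both with array medians subtracted, and the SIN3 complex (0.008 after quantile normalization). *Morf4l1* of the SIN3 complex turned to -0.017 with array medians subtracted, and no other single gene named by the rule was counted as changing sign. The cause of these shifts was not tested. Of the list medians, 125 of 200 moved little, 67 moved further and 8 were counted as changing sign. The numbers of called members were also counted without each control line, an alternative chosen after seeing the data; of all numbers of called members under the alternatives, 575 lay within 1.5 times the value reported and 65 did not, most of them for reported counts of 1 or 2. No paired analysis was possible because the result comes from no test. With 1 array per line, array and line cannot be told apart.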

Other observations

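Probe sets with no symbol or with several were not used in the comparison. Of 13767 such probe sets, 478 (3.47%) were higher in H3 and 625 (4.54%) higher in H4 by the same criteria. Over all genes 1.73% were called higher in H3 and 3.7% higher in H4. Among 53 small nucleolar RNA genes, 4 were higher in H4, *Snord47* (-0.65), *Snord87* (-0.63), *Snord42a* (-0.58) and *Snora44* (-0.54), and 0 were higher in H3. Among 297 microRNA genes, 2 were higher in H3, *Mir679* (0.79) and *Mir7-2* (0.51), and 0 were higher in H4. Among 675 long noncoding RNA genes, 6 were higher in H3 and 7 higher in H4. These genes were named after their values were seen.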
